A study of Mus musculus with 4 samples.

Results

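The immediate early genes of the AP-1 and EGR families were examined in N2a cells, a mouse neuroblastoma line, after knockdown of Arglu1 and treatment with dexamethasone (Dex), a synthetic glucocorticoid. The 10 genes were Fos, Fosb, Fosl1, Jun, Junb, Egr1, Egr2, Egr3, Ier2 and Atf3, chosen by gene symbol among the 22667 genes listed, and all 10 were found. Transfection lasted 48 h, either with siControl, a pool of siRNAs without a target, or with siArglu1, a single siRNA duplex that targets Arglu1, so that an effect of this duplex on other transcripts cannot be told apart from knockdown. Ethanol as the vehicle (Veh) or Dex at 100 nM was then added, and cells were taken 4 h later. The 2 siRNAs and 2 treatments give 4 groups (siControl Veh and Dex, siArglu1 Veh and Dex), all of them otherwise unmodified N2a cells grown as a monolayer in DMEM with FBS. RNA of 3 cultures was pooled in each group before the library was made. There is thus 1 library per group and 4 in all, so that no pair of groups has replicates. No p-value is given for a single gene in any pair. A difference between siRNAs or treatments cannot be told apart from one between the pools. ARGLU1 is a coactivator of the glucocorticoid receptor that also takes part in splicing, and the comparisons ask how its knockdown and Dex act on these genes.

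Immediate early genes are transcribed within minutes of a growth factor, calcium or stress signal, without new protein synthesis, through factors that are already present, such as SRF with its ternary complex factors and CREB. Their mRNAs are short-lived, and most of their products are transcription factors: FOS and JUN proteins pair through leucine zippers to form AP-1, and EGR proteins bind GC-rich sites through zinc fingers. In neurons and neuroblastoma cells they are known as markers of recent stimulation and of the MAPK pathway.

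The genes are compact. In GENCODE M21 the longest transcript of each had 1 to 4 exons, with a median of 2, beside a median of 8 over the 12497 genes compared, of which 27.9% had no more than 4. Promoters are shown for Fos and Fosb, a pair of the FOS family of which only Fosb passed the threshold on knockdown, and for Jun and Junb, a pair of the JUN family of which only Junb was lower. The set of RefSeq windows used here held 10 windows for 6 of the 10 genes. Each window is the 250 bases before a transcription start, in GRCm38.p6, on the strand of the gene, 5′ to 3′. These were chr12:85473640-85473889 on the plus strand for Fos, chr7:19310046-19310295 on the minus strand for Fosb, chr4:95052223-95052472 on the minus strand for Jun and chr8:84978749-84978998 on the minus strand for Junb. Capitals mark TGACG, the shorter form of the cAMP response element bound by CREB and ATF proteins, in Fos, Fosb and Junb; GCGGGGGCG, a site of the EGR type, also in Fosb; and TGACATCA, a variant of the AP-1 site known in the Jun promoter, in Jun.
Fos: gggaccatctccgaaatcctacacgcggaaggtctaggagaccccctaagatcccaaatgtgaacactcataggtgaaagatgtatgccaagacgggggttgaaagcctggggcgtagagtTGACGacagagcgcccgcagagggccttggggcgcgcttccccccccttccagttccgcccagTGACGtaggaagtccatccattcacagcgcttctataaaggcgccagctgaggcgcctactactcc
Fosb: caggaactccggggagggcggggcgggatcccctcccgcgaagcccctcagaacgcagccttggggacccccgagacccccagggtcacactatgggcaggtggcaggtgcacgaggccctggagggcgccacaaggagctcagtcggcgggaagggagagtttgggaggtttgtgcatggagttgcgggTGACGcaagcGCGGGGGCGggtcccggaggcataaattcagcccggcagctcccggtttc
Jun: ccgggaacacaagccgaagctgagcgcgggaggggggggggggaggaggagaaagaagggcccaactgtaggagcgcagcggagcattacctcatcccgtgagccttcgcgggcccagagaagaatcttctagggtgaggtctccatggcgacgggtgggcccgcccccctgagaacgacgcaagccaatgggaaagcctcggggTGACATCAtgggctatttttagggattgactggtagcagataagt
Junb: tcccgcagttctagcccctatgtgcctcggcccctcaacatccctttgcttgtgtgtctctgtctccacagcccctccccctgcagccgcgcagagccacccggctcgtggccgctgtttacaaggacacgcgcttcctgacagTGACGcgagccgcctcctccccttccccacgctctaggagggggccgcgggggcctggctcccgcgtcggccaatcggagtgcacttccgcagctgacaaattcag

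TGACG was searched on both strands, and 7 of the 10 windows held it, beside 17.8% of all 32851 windows. By gene, it was in 5 of the 6 with a window (Fos, Fosb, Junb, Egr2 and Atf3), and no share by gene was counted over all genes. Egr2 has 5 windows, and the 3 of them that hold TGACG overlap and share the same sites. In Fos it lay 129 to 125 and 66 to 62 bases before the start, upstream of a TATAAA box at 33 to 28, a motif held by 12.4% of all windows. In Fosb it lay at 60 to 56, followed at 50 to 42 by GCGGGGGCG, a match to GCGNGGGCG, which 4.7% of windows hold on either strand and which no other of these genes held. In Junb it lay at 106 to 102, with a CCAAT box at 36 to 32, while Jun carried TGACATCA at 45 to 38, found in 2.93% of windows, and CCAAT at 65 to 61, found in 33.8%. The CArG box, the site of SRF, matched in 4 of the 5 Egr2 windows, 3 of them the overlapping ones, and in 1.47% of all windows. Bases farther upstream than the windows were not searched, and Egr1, Egr3, Fosl1 and Ier2 had no window. Whether the other genes carry an SRF site outside the windows was therefore not tested. The full palindrome TGACGTCA and the AP-1 site TGANTCA, which hold in 1.55% and 6.75% of windows, were in none of the 10. The glucocorticoid response element, AGAACA and TGTTCT with 3 bases of any kind between them, was in none of them either and in 0.00913% of all windows. TGACGTCA holds TGACG on each strand, so those searches overlap.

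Reads on genes ranged from 66074574 to 86541444 per library. Arglu1 was at 26.3% of siControl in the vehicle pair (95% interval of counting error, 25.2 to 27.5) and at 22.5% in the Dex pair (21.7 to 23.4). All 17 markers of neuroblastoma and sympathetic neurons were listed, with summed cRPKM (reads for each kilobase to which reads can be mapped, adjusted for the depth of the library) of 1767 to 2397. Of the 15 compared, 5 were higher in siArglu1 (Dbh, Mycn and Gata3 among them) and 1, Th, was lower past the threshold used below, in each pair. Markers of glia, immune cells and epithelium summed to at most 2.22, 0.63 and 1.15 cRPKM. The 11 markers of fibroblasts and smooth muscle summed to 5.95 and 5.36 in the siControl libraries and to 81.4 and 73.4 in the siArglu1 libraries, and 4 of 8 compared in vehicle and 3 of 8 in Dex were higher past the threshold used below. Acta2 alone was at 3.85 and 3.55 cRPKM in siControl and at 77.38 and 69.87 in siArglu1 (Veh, then Dex), most of each sum. The smooth muscle genes Acta2, Cnn1 and Myh11 passed the threshold in both pairs, while Tagln, also of smooth muscle, did not (0.71 and 0.43). Dcn, a fibroblast gene, passed it in vehicle (15 to 34 reads, log2 ratio 1.16, and 0.61 in Dex). Of the other fibroblast markers, Col1a1, Pdgfra and Pdgfrb had 17 to 371 reads and log2 ratios of -0.18 to 0.38, Col1a2 had 1 to 8 reads, and Col3a1 and Lum had no read in 3 libraries and 1 read in siArglu1 Dex; the part of this shift in the results below was not tested. In these bulk libraries, fewer cells that express a gene and less RNA per cell cannot be told apart.

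Per unit of length, the genes fell into 3 tiers in N2a cells. Ier2, Jun and Junb were at 18.89 to 42.6 cRPKM in every library, Egr1, Atf3 and Fos at 1.63 to 11.5, and Fosb, Egr2, Egr3 and Fosl1 at 0.52 or less. In siControl Veh the order was Ier2, Junb, Jun, Egr1, Atf3, Fos, Fosb, Egr2, Egr3 and Fosl1, and the counting intervals of neighbours overlapped for Fosb with Egr2 and for Egr2 with Egr3. Fosl1 had too few reads for a cRPKM interval, so that its overlap with Egr3 was not assessed. The JUN genes Jun and Junb summed to 47.5 to 59.5 cRPKM, Egr1, Egr2 and Egr3 to 3.31 to 12.0, and Fos, Fosb and Fosl1 to 1.79 to 2.6. Of the family members outside the 10 genes, Fosl2 was at 8.69 to 10.86 cRPKM and Jund at 32.79 to 43.62, so that Fosl2 held more FOS family mRNA than Fos, Fosb and Fosl1 together in each library. After knockdown the order differed in 3 places in the vehicle pair, with Jun above Junb, Atf3 above Egr1, and Egr2 above Fosb, the last with overlapping intervals.

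**Figure D1:**
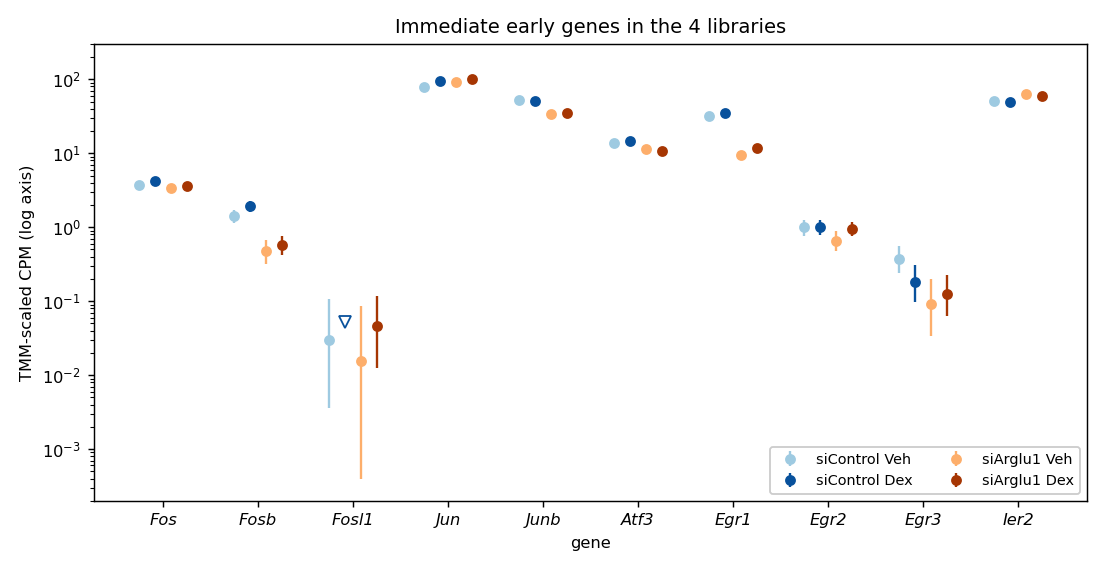
TMM-scaled read levels (CPM, log axis) of the 10 genes in the siControl (blue) and siArglu1 (orange) libraries, Veh light and Dex dark; bars are exact 95% Poisson intervals and the open triangle is the upper bound for Fosl1, which had no read in siControl Dex. Egr1 and Fosb were lower in both siArglu1 libraries than in both siControl libraries, as were Junb and Atf3, while Jun and Ier2 were not. Fos, Egr2 and Egr3 were lower too, but with overlapping bars.

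Knockdown was compared in 2 pairs that share no library, siArglu1 over siControl in vehicle and the same in Dex. A log2 ratio of 0.81 or more, up or down, counted as a difference. The study gives that size in a figure legend on knockdown, but it called genes by an edgeR p-value, which was not required here. A gene also needed 75 reads or more in total. Of the 10 genes, 8 reached that minimum, and Egr3 (55 reads) and Fosl1 (7 reads) did not. Egr1 and Fosb were lower past the threshold in both pairs and none of the 8 was higher. Of all genes compared, 15.8% passed the threshold in vehicle (7.0% higher and 8.77% lower) and 12.1% in Dex (6.19% higher and 5.93% lower), while 5.07% were lower and 4.83% higher in both. The median log2 ratio of the 8 genes was -0.44 in vehicle and -0.35 in Dex, beside 0.00 over all genes in both pairs.

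Within the FOS family the knockdown ratios differed between genes. Fosb (ENSMUSG00000003545), whose product pairs with JUN proteins and whose splice form ΔFosB accumulates in stimulated neurons, had 93 and 137 reads in the siControl libraries (Veh, then Dex) and 31 and 50 in the siArglu1 libraries, or 0.38, 0.52, 0.13 and 0.16 cRPKM. Both siArglu1 libraries lay below both siControl libraries. Fosb was thus at 33.9% (21.8 to 51.3) of its siControl level in vehicle and at 29.9% (21.2 to 41.6) in Dex, log2 ratios of -1.54 and -1.72, and 1.62% and 0.712% of all genes had lower ratios. Fos (ENSMUSG00000021250), the first AP-1 gene described and the usual marker of neuronal activity, had 247, 305, 224 and 319 reads in the same order, or 1.82, 2.08, 1.63 and 1.79 cRPKM. The siArglu1 libraries were below the siControl libraries in cRPKM by little, with siArglu1 Dex just under siControl Veh. The log2 ratios were -0.12 (-0.39 to 0.15) in vehicle and -0.22 (-0.46 to 0.01) in Dex, both intervals including 0. Fosl1 (ENSMUSG00000024912), which encodes FRA-1, had 2, 0, 1 and 4 reads; with so few reads no ratio is given.

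The JUN genes moved apart. Junb (ENSMUSG00000052837), a weaker transactivator than Jun that often opposes it, had 3462 and 3679 reads in the siControl libraries (Veh, then Dex) and 2211 and 3078 in the siArglu1 libraries, or 29.8, 29.38, 18.89 and 20.23 cRPKM. In cRPKM both siArglu1 libraries were below both siControl libraries, and the log2 ratios were -0.62 (-0.70 to -0.55) in vehicle and -0.55 (-0.62 to -0.48) in Dex, short of the threshold in both pairs. Jun (ENSMUSG00000052684), the main partner of FOS in AP-1, had 5308, 6737, 5981 and 8819 reads, or 25.58, 30.12, 28.6 and 32.45 cRPKM. The siControl and siArglu1 libraries overlapped in cRPKM, and Jun was slightly higher in siArglu1 in each pair, by 0.19 (0.14 to 0.25) and 0.10 (0.05 to 0.15) on the log2 scale. Jun and Junb are single-exon genes, and both overlap a gene on the opposite strand, Jun the antisense gene Junos and Junb the peroxiredoxin gene Prdx2. The library kit does not mark strand, so that reads of the overlaps cannot be told apart. Prdx2 had 32640 to 37500 reads per library and log2 ratios of -0.06 and -0.27 in the vehicle and Dex pairs, beside -0.62 and -0.55 for Junb. Fosl1 likewise overlaps Ccdc85b.

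Atf3 (ENSMUSG00000026628), a stress-induced bZIP factor of the ATF family that can pair with JUN proteins, had 928 and 1052 reads with siControl (Veh, then Dex) and 747 and 926 with siArglu1, or 7.26, 7.63, 5.8 and 5.53 cRPKM. Both siArglu1 libraries were below both siControl libraries in cRPKM, with log2 ratios of -0.29 (-0.43 to -0.15) in vehicle and -0.47 (-0.60 to -0.34) in Dex, under the threshold. Ier2 (ENSMUSG00000053560), a nuclear protein of the immediate early response that lacks a known DNA-binding domain, had 3369, 3496, 4179 and 5173 reads, or 34.61, 33.32, 42.6 and 40.58 cRPKM. It went the other way: both siArglu1 libraries were above both siControl libraries, by 0.33 (0.27 to 0.40) in vehicle and 0.28 (0.21 to 0.34) in Dex.

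Egr1 was the lowest of the EGR genes relative to siControl among those compared. Egr1 (ENSMUSG00000038418), a zinc finger factor induced through SRF and ternary complex factors, had 2117 and 2499 reads with siControl (Veh, then Dex) and 613 and 1037 with siArglu1, or 10.5, 11.5, 3.02 and 3.93 cRPKM. The groups were far apart, with Egr1 at 29.4% (26.8 to 32.2) of its siControl level in vehicle and 34.0% (31.6 to 36.5) in Dex. Its log2 ratios were -1.76 (-1.90 to -1.64) and -1.56 (-1.66 to -1.45), and 0.888% and 1.02% of genes had lower ones. Egr2 (ENSMUSG00000037868), known as Krox20 and required for myelination, had 66, 71, 43 and 83 reads, or 0.34, 0.34, 0.22 and 0.33 cRPKM. It was low in siArglu1 Veh alone, with log2 ratios of -0.59 (-1.19 to -0.02) in vehicle and -0.06 (-0.54 to 0.41) in Dex. Egr3 (ENSMUSG00000033730), a relative of Egr1 expressed in neurons and in muscle spindles, had 25, 13, 6 and 11 reads, and its log2 ratios were -1.89 (-3.61 to -0.72) in vehicle and -0.49 (-1.83 to 0.74) in Dex, too few reads to be compared.

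**Figure D2:**
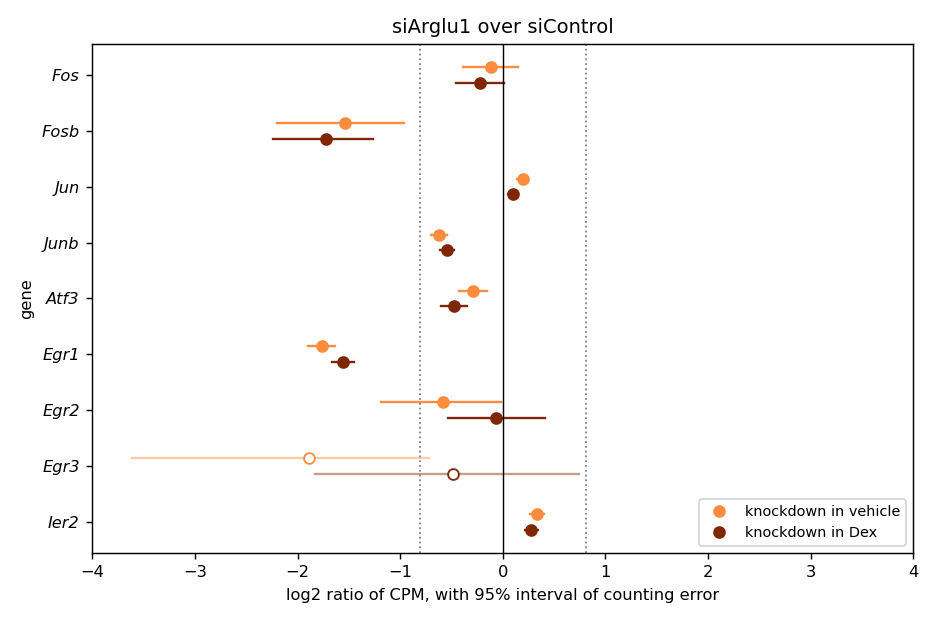
Log2 ratio of siArglu1 over siControl for 9 genes in both pairs, vehicle and Dex, with exact 95% intervals of counting error; dotted lines mark 0.81 up and down and open symbols mark Egr3, under the read minimum. Egr1 and Fosb lie beyond the line in both pairs, Junb and Atf3 lie below 0 but inside it, and Jun and Ier2 lie above 0.

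Counting error alone separates many genes at this depth. The interval of the knockdown ratio excluded 0 for 7 of the 8 genes in vehicle, 2 above and 5 below, and for 6 in Dex, 2 above and 4 below, beside 80.0% and 78.6% of all genes compared. The direction was the same in both pairs for all 8 genes. The same share was not counted over all genes, so that this cannot be read as particular to the 8. The intervals of Fos in both pairs and of Egr2 in Dex included 0. An additive edgeR quasi-likelihood model was fitted over the 4 libraries, with 1 residual degree of freedom. Apart from a shared Dex effect, it takes the Veh and Dex libraries of each siRNA as replicates, which they are not. At a Benjamini-Hochberg adjusted p under 0.05 it called 5 of the 8 for knockdown, Ier2 as higher and Egr1, Fosb, Junb and Atf3 as lower. It also called 61.6% of all genes. Ratios of all genes drifted with mappable length, and removal of that trend moved Ier2 most in vehicle, from 0.33 to 0.12, and Junb from -0.62 to -0.79, without taking a gene across the threshold. Heat shock genes, which likewise respond to stress and handling, did not pass the threshold in either pair (0 of 9), beside 15.8% of all genes in vehicle and 12.1% in Dex. Hspa1a, Hspa1b and Hspb1 had at most 2 reads in any library and were not compared. Genes of the integrated stress response, the pathway of Atf4 upstream of Atf3, did not pass it either (0 of 10). Of these 10, 6 had ratios above 0 and 4 below 0 in vehicle, and 5 and 5 in Dex. Atf4 was among those above 0, with log2 ratios of 0.52 (0.50 to 0.53) in vehicle and 0.33 (0.32 to 0.35) in Dex. A part of either stress response in the ratios of the 8 genes was not tested.

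**Figure D3:**
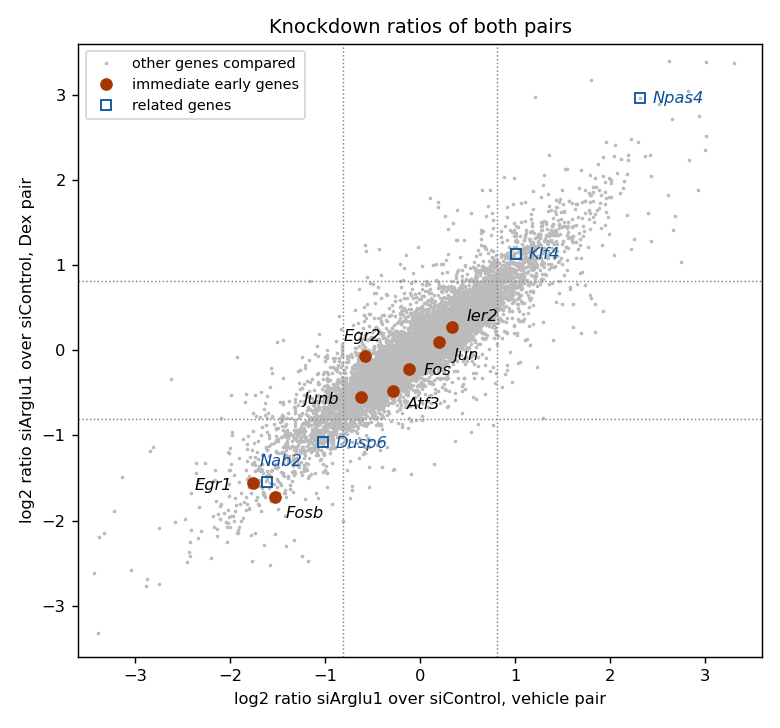
Log2 ratio of siArglu1 over siControl in the vehicle pair (horizontal) against the Dex pair (vertical) for the genes compared; filled circles are the 8 immediate early genes and open squares are Nab2, Dusp6, Klf4 and Npas4. Egr1 and Fosb sit beside Nab2 in the lower left, past 0.81 (dotted) in both pairs, and the other 6 lie within the central cloud.

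Dex left the 8 genes within a log2 ratio of 1, the threshold used here for Dex, in siControl (0 of 8, beside 0.464% of all genes, 0.32% higher and 0.144% lower) and in siArglu1 (0 of 8, beside 0.392%, 0.328% higher and 0.064% lower). With shares this small over all genes, 0 of 8 says little about these genes. In siControl the medians were 0.11 for the 8 genes and 0.00 for all genes, and in siArglu1 0.12 and 0.00. The 2 Dex comparisons share no library with each other. Fosb had the largest ratio in siControl, 0.46 (0.07 to 0.86), followed by Jun with 0.24 (0.19 to 0.30), Fos with 0.20 (-0.04 to 0.45) and Egr1 with 0.14 (0.06 to 0.22). In that order, 98.1%, 95.4%, 94.3% and 91.3% of all genes had lower ratios. The ratios of Atf3, Egr2, Junb and Ier2 ranged from -0.05 to 0.08, and their intervals included 0. Between 30.8% (Ier2) and 83.5% (Atf3) of all genes had lower ratios than these. In siArglu1, Egr1 with 0.35 (0.20 to 0.49) and Jun with 0.15 (0.10 to 0.20) had intervals above 0, and Ier2 with -0.10 (-0.16 to -0.04) had one below. That of Egr2 was 0.53 (-0.01 to 1.10), from 43 and 83 reads. Over all genes the interval excluded 0 for 27.4% in siControl and 52.8% in siArglu1, beside 3 of 8 in each for the immediate early genes. Egr3 went from 25 to 13 reads with Dex in siControl, which is -0.99 (-2.13 to -0.02) on the log2 scale, and from 6 to 11 in siArglu1. For scale, Per1, an immediate early gene of the circadian clock that is a direct glucocorticoid target, went from 780 to 3116 reads in siControl and from 330 to 2532 in siArglu1, log2 ratios of 1.90 (1.78 to 2.01) and 2.53 (2.36 to 2.70).

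**Figure D4:**
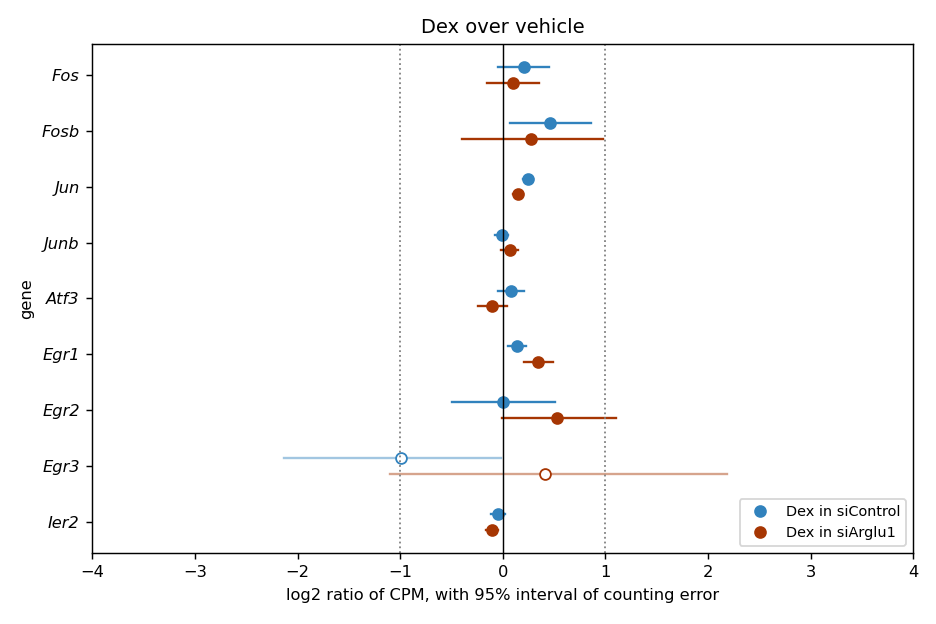
Log2 ratio of Dex over vehicle for 9 genes in siControl and in siArglu1 cells, with exact 95% intervals of counting error; dotted lines mark 1 in either direction and open symbols mark Egr3. All 8 genes compared lie inside the lines, the farthest being Fosb in siControl (0.46) and Egr2 in siArglu1 (0.53).

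The knockdown ratio in Dex was set against that in vehicle for each gene. The difference was 0.21 (0.04 to 0.37) on the log2 scale for Egr1, so that its ratio lay nearer 0 in Dex, and -0.09 (-0.17 to -0.02) for Jun. For the other 6 genes the interval included 0, from -0.18 for Fosb and Atf3 to 0.52 (-0.19 to 1.24) for Egr2. Intervals cover counting error only, and they excluded 0 for 47.2% of all genes compared.

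The genes around this response did not move as 1 group. Of 32 other immediate early genes compared, 6 were higher and 2 lower past 0.81 in vehicle and 6 higher and 1 lower in Dex, with medians of 0.27 and 0.13. Npas4, a neuronal factor induced by calcium, had 78 and 67 reads in siControl and 384 and 647 in siArglu1, log2 ratios of 2.31 (1.97 to 2.69) and 2.96 (2.62 to 3.37). Cyr61, a secreted matrix protein, had ratios of 1.64 and 1.47, and Klf4, a zinc finger factor, of 1.0 and 1.14. These are in the opposite direction to Egr1 and Fosb in the same libraries. Among 15 other AP-1 and CREB/ATF genes, 9 had ratios above 0 and 6 below 0 in each pair. Past 0.81, 1 of these genes was higher in vehicle and 0 in Dex, and 0 were lower. Their FOS and JUN members Fosl2 (0.07 and 0.15) and Jund (0.41 and 0.20) were not lower, and the interval of Fosl2 in vehicle included 0. Thus Fosb, Junb and Fos had negative ratios, those of Fos with intervals including 0, while Fosl2, Jun and Jund had positive ones.

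Nab2, which encodes a corepressor that binds EGR proteins and is itself an EGR target, had 3029 and 2941 reads in siControl Veh and Dex and 971 and 1231 in siArglu1 Veh and Dex. Its ratios of -1.62 (-1.72 to -1.51) and -1.54 (-1.64 to -1.45) were close to those of Egr1, while the related Nab1 was at 0.23 and 0.21, and the remaining EGR partners, Egr4 and Wt1, had at most 2 reads. Of 8 EGR targets compared, with Nab2 among them, 1 was higher and 2 lower in each pair. Tgfb1 was lower (-1.04 and -0.82) and F3, tissue factor, was higher (1.16 and 1.0). Of 8 AP-1 targets compared, 2 were higher and 0 lower in each pair, the urokinase Plau (3.00 and 2.35, from 12 and 14 reads to 101 and 92) and its receptor Plaur (1.38 and 1.20). Of the metalloproteinase genes in that list, Mmp9 had 41 and 44 reads in siControl and 57 and 83 in siArglu1, log2 ratios of 0.49 and 0.62, and Mmp3, Mmp10, Mmp12 and Mmp13 had at most 1 read in any library.

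**Figure D5:**
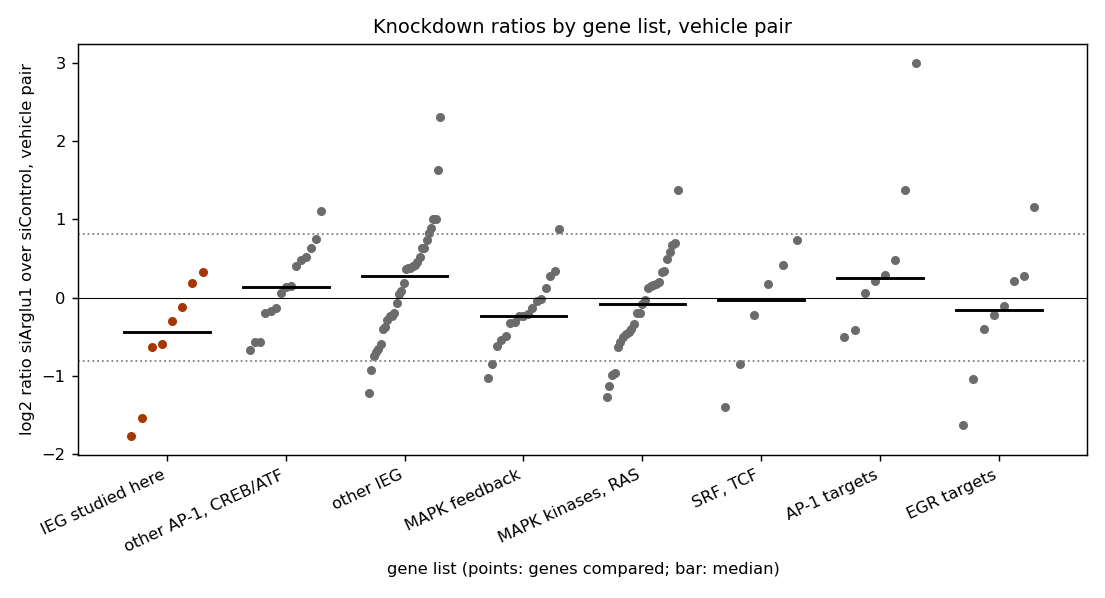
Log2 ratio of siArglu1 over siControl in the vehicle pair for the genes compared in 8 lists, 1 point per gene with the list's median as a bar; dotted lines mark 0.81 up and down. The 8 immediate early genes studied here have a median of -0.44, and 32 other immediate early genes have one of 0.27.

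The kinases that signal to these promoters were mixed. Of 27 MAPK kinase and RAS genes compared, 1 was higher and 4 were lower in each pair. Mapk3, which encodes ERK1, had ratios of 1.38 (1.32 to 1.45) and 1.46 (1.40 to 1.53), whereas Map2k1, which encodes MEK1, had -0.96 and -1.05, Rps6ka3, which encodes RSK2, -1.13 and -0.98, and Rps6ka5, which encodes MSK1, -1.26 and -1.04. Of 17 phosphatases and feedback inhibitors of the pathway, 1 was higher and 2 lower in vehicle and 1 higher and 1 lower in Dex. Dusp6, an ERK phosphatase, was lower in both (-1.02 and -1.08), and Dusp2 was higher (0.87 and 0.82). Of SRF and its cofactors, 2 of 6 were lower in vehicle, Elk4 (-0.85) and Mkl2 (-1.39), and 0 in Dex, and Srf had 0.73 and 0.81, short of the threshold unrounded in both. Past 1 after Dex, Per1 was the 1 gene among the other AP-1 and immediate early genes, the EGR partners, both target lists and the kinase, phosphatase and SRF lists.

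By Euclidean distance over the 3 log2 ratios to siControl Veh, among 10104 genes with at least 200 reads in every library, the genes nearest to Fos were Pkdcc, Zfp488 and Tob1, at 0.05 to 0.07. Nearest to Jun were Abcb1b, Prr7 and Zbtb7c, at 0.05 to 0.07, and nearest to Egr1 were Ank3, Eml6 and Iqgap2, at 0.16 to 0.21. These patterns rest on 3 ratios that share siControl Veh. Splicing could not be compared: 4 sites were listed for 2 of the 10 genes, Fosl1 and Egr3, and 0 had enough coverage.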

How the data were processed

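RNA of 3 cultures was pooled per group, and 4 TruSeq V2 libraries were sequenced by the authors on a HiSeq2500. The submitters' processing notes name Bowtie and mm9, with no role or version. The authors deposited the raw read count of each gene in each library; blanks mean no read and were taken as 0. The same deposited table holds RPKM corrected for mappability (cRPKM), rounded to 2 decimals. The deposited splicing tables give the percent spliced in (PSI) of each event and a coverage score. 2 further columns of the authors' ratios of cRPKM were not used.

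Reads were scaled by TMM (edgeR 4.0.16, R 4.3.3), and log2 CPM were computed after adding a prior count of 1. Ratio intervals are exact binomial, conditional on the reads of both libraries, and level intervals are exact Poisson (95%, scipy 1.17.1). All cover counting error only, since reads are not independent molecules. With 1 library per group, no pair of libraries was tested against each other. A splicing event was compared where no library lacked a PSI and 3 or more were scored LOW or above. Genome windows and transcript structures came from RefSeq GRCm38.p6 and GENCODE M21, not from the build of the counts. Genes outside the 10 were named by rule: up to 3 higher and 3 lower in both pairs per list, past 1 after Dex, or nearest in pattern. Atf4, the fibroblast markers, Egr4, Elk4, Fosl2, Hspa1a, Hspa1b, Hspb1, Jund, Mkl2, metalloproteinases, Nab1, Prdx2, Srf, Tagln and Wt1 were named after their values were seen. The 10 genes and all lists were chosen with earlier results of these data known. The scripts were tested on simulated data. 1 gene of the kinase list is not reported here. Alternatives were DESeq2 1.42.0 size factors, library totals, prior counts, read minimums, cRPKM, removal of the length trend (lowess, span 0.3, 3 iterations), other thresholds and an additive edgeR model.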

Additional observations from a re-analysis of the deposited data

Results flagged for a closer look

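The knockdown ratio differed between the Dex and vehicle pairs beyond counting error for 2 genes. The difference, Dex minus vehicle on the log2 scale, was 0.21 (0.04 to 0.37) for Egr1 and -0.095 (-0.17 to -0.02) for Jun. Among all genes compared, 33.3% had an absolute difference at least as large as that of Egr1 and 65.2% one at least as large as that of Jun. Spread between cultures is not in these intervals, since each group is 1 pool.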

How the results depend on the processing

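No paired analysis was possible because each group is 1 library and carries no replicate number. Of 78 recomputed counts and medians, 71 stayed within the limits set for them. The 2 genes past the threshold on knockdown became 1 in each pair with at least 400 reads, which drops Fosb and Egr2, 4 in vehicle with a threshold of 0.58, where Junb and Egr2 join, and 5 in each pair (1 higher, 4 lower, beside 61.6% of all genes) in the additive edgeR quasi-likelihood model with Benjamini-Hochberg adjusted p under 0.05, which has 1 residual degree of freedom. The 0 genes past the threshold after Dex became 1 in each siRNA state with no minimum on reads, Fosl1 in both cases. Of 296 values of single genes, 289 stayed inside their counting intervals. Among the 296 are values under other read minimums, which only choose the genes kept, so that these values could not move. The values past the threshold, those of Egr1 and Fosb on knockdown, did not turn their direction. Across the 8 scalings and filters, Egr1 ranged in vehicle from -1.80 to -1.73 and in Dex from -1.56 to -1.53, and Fosb, which the minimum of 400 reads leaves out of 1 of them, from -1.57 to -1.06 and -1.74 to -1.25. Signs crossed 0 for 2 values, both near it, Egr2 after Dex in siControl and Ier2 after Dex in siArglu1. Depth limits Fosb, Egr2, Egr3 and Fosl1, whose reads were 0 to 137 per library.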
